A study of Homo sapiens with 4 samples.

Results

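The genes described here are 42 human collagen genes, a set of 11 fibrillar collagens, 6 basement-membrane collagens and 25 others, taken from 20090 protein-coding genes. The set is not every collagen gene, and the type IV chain genes COL4A5 and COL4A6 are not in it. Each was examined for CUT&RUN intervals of SOX2 and of its DNA-binding domain that overlapped the gene body or the 10 kb on either side by at least 1 bp, on the hg19 build. In CUT&RUN a nuclease is brought by an antibody to the protein of interest, and the DNA cut free is sequenced. The antibody here recognised the V5 tag, and the cells were BJ, an established line of human foreskin fibroblasts, 48 h into ectopic expression of either full-length SOX2 (2 samples) or the domain, labelled SOX2dbd and written SOX2-DBD below (2 samples). All 4 samples share the line, the tag, the antibody and the time, the promoter driving expression is not given in the sources used here, and no sample without the tagged protein was analysed here. For each group 1 peak list, attached to replicate 1, was analysed here, so no value below has an error between replicates and no test between groups was made. Confidence intervals (95%) are exact Poisson for counts and densities and Wilson for shares, and cover counting error only.

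The SOX2 list held 57907 distinct intervals and the SOX2-DBD list 15220, of which 14300 were identical entries present in both and 920 were in the SOX2-DBD list alone. The sequencing depth and normalization are unknown. Because a shared entry carries the same signal in both lists, the library it was measured in is not stated. Total signal is the value the authors deposited for an interval. It is given for single intervals, and also as ranges, medians and highest values of genes or classes. It further served to choose intervals and to take the upper 50% of each list. Totals of shared entries and of entries in the SOX2 or SOX2-DBD list alone are not known to be on the same scale. Ranks and medians that mix them are therefore descriptions of the deposited values only. At some shared entries the total signal is larger than a sum over the listed bases could be. A shared entry at COL8A1, for example, is 8 bp wide, with a maximum of 8 and a total of 3208. Of the 58827 distinct intervals of both lists, 193 fell at collagen genes. No expression was measured, so the fibroblast label could not be checked against marker genes.

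Collagens are built from 3 chains wound into a triple helix. Fibrillar collagens such as types I, III and V assemble into the banded fibrils that give skin and tendon their strength, and fibroblasts are the main source of them in connective tissue. Type IV collagen forms the sheet-like network of basement membranes, while other families decorate fibrils, form beaded filaments or hexagonal networks, or span the cell membrane. SOX2 is a pioneer factor of pluripotent and neural cells that binds a short core motif through its HMG-box DNA-binding domain and can engage DNA in closed chromatin.

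To show the DNA under the intervals, 8 windows of 200 bases at interval centres are printed, plus strand, hg19. Capitals mark matches to the SOX core motif (ACAAAG or ACAATG) or to the AP-1 motif (TGACTCA or TGAGTCA), sought on both strands; no printed match of one motif overlaps one of the other. The first pair comes from COL1A2, the member with the densest intervals. The first of these is the member-start interval with the highest total signal (no match), and the second is a shared interval with an AP-1 match at bases 112 to 118 and a SOX core match at bases 178 to 183.
COL1A2 chr7:94046539-94046738: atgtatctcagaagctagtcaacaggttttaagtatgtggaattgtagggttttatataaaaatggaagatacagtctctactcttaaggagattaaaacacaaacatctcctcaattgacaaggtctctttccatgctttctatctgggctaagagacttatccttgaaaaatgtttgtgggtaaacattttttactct
COL1A2 chr7:94043902-94044101: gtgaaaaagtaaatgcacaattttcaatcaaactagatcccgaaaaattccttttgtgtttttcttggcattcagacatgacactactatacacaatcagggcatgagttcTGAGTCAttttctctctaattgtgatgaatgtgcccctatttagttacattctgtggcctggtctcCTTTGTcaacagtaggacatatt
Another 4 come from COL12A1, where 6 of 14 SOX2 intervals were shared. The first lies before the gene's start and had the highest value of an unexplained seventh column among shared collagen intervals, and the others are intronic windows with 3 SOX core matches, 2 SOX core matches and 2 AP-1 matches.
COL12A1 chr6:75923129-75923328: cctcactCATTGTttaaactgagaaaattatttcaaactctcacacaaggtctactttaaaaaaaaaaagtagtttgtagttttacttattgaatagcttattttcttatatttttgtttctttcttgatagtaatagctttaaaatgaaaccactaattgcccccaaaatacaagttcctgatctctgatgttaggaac
COL12A1 chr6:75857490-75857689: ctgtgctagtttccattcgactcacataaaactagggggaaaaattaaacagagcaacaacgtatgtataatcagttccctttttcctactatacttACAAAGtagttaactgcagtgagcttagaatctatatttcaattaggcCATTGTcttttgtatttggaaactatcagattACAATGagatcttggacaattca
COL12A1 chr6:75859092-75859291: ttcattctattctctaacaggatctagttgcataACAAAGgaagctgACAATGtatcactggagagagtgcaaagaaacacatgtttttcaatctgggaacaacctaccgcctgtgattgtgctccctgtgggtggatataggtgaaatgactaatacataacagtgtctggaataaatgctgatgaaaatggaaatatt
COL12A1 chr6:75905918-75906117: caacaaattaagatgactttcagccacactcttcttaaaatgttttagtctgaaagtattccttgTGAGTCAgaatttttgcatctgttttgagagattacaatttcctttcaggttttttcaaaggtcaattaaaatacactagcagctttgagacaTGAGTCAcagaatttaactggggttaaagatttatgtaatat
The final pair comes from shared intervals of a fibrillar and a basement-membrane gene and holds no match to either motif.
COL11A1 chr1:103358022-103358221: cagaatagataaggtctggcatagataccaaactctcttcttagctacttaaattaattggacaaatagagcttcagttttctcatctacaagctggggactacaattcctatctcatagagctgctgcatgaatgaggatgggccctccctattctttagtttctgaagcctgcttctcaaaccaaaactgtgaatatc
COL4A2 chr13:111049104-111049303: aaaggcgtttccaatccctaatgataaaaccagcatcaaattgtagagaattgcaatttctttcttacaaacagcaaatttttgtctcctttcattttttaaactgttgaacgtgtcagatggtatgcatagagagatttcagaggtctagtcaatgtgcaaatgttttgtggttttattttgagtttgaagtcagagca
The windows chr7:94043902-94044101, chr6:75857490-75857689, chr6:75859092-75859291 and chr6:75905918-75906117 were chosen after their values were seen.

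Most collagen genes carried SOX2 intervals, but the family as a whole was close to other genes of the genome. At least 1 SOX2 interval was found at 30 of the 42 members, against 47.8% of all protein-coding genes, and at least 1 SOX2-DBD interval at 18 members, against 24.0%. Collagen genes are long, with a median of 133 kb against 27.3 kb for all protein-coding genes. Within bands of length the SOX2 excess was smaller or absent, while the SOX2-DBD share was not compared by band. Of the 6 members under 30 kb, 2 had a SOX2 interval (background 26.4%). Of the 12 members of 30 to 100 kb it was 7 (63.9%), of the 17 members of 100 to 300 kb it was 16 (84.6%), and of the 7 members over 300 kb it was 5 (82.9%).

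Per length of DNA, the 42 regions together held 192 SOX2 intervals in 6930 kb, or 2.77 per 100 kb (2.39 to 3.19), beside 2.59 per 100 kb over the merged regions of all protein-coding genes. For SOX2-DBD the collagen regions held 55 intervals, 0.794 per 100 kb (0.598 to 1.03), beside 0.637. Both collagen intervals span the genome-wide values. Of the 192 SOX2 intervals, 54 were shared with the SOX2-DBD list (28.1%, 22.2 to 34.9%), beside 24.7% of all SOX2 intervals and 23.4% of those at protein-coding genes.

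The members themselves varied widely. Densities ran from 0 at 12 genes to 17.8 SOX2 intervals per 100 kb at COL1A2. The median was 1.298 over the 42 members, beside 0 over all protein-coding genes. Over the protein-coding genes with at least 1 interval it was 3.51, which is not a like comparison because the member median counts the genes at 0. Above 30 kb the median member was below the median gene of its length band, at 1.14 against 1.67 per 100 kb for 30 to 100 kb, 1.26 against 2.81 for 100 to 300 kb and 1.75 against 2.15 over 300 kb, while both were 0 under 30 kb. Above the 95th percentile of all protein-coding genes (7.63 per 100 kb, which 5.00% exceed) lay 6 members, namely COL1A2, COL12A1, COL5A2, COL8A1, COL3A1 and COL10A1. The percentile was chosen as a mark after these densities had been seen.

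**Figure D1:**
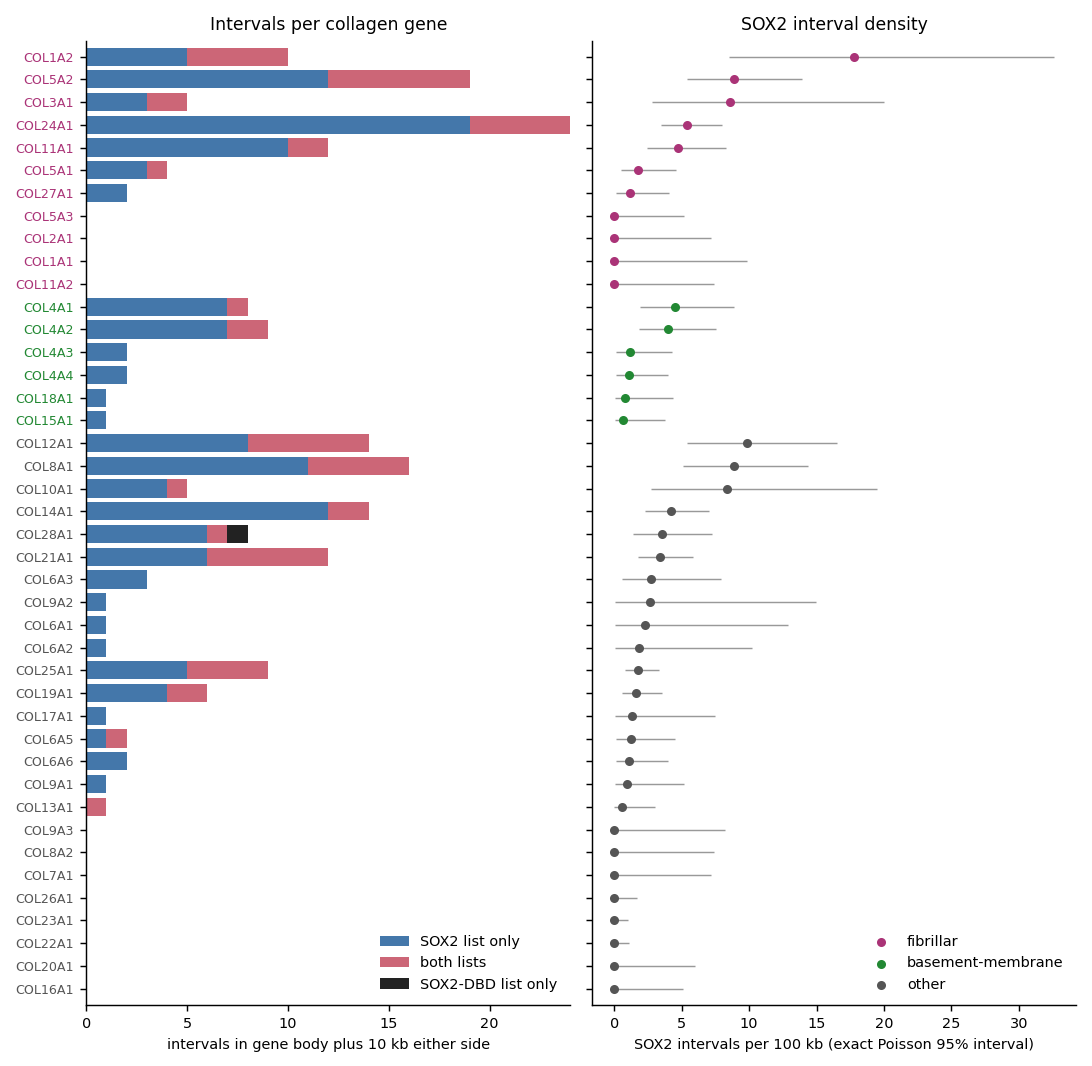
Left, intervals per collagen gene (bars, split by the list that holds them); right, SOX2 intervals per 100 kb with exact Poisson 95% intervals, genes coloured by class and ordered by density within it. COL1A2 has the highest density, 17.8 per 100 kb, COL24A1 the most intervals, 24, and 12 genes have none.

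The 3 classes differed in pooled density, with fibrillar collagens highest. The 11 fibrillar genes held 76 SOX2 intervals in 1637 kb, or 4.64 per 100 kb (3.66 to 5.81). The 6 basement-membrane genes held 20 in 992 kb, or 2.02 per 100 kb (1.23 to 3.11), and the 25 other genes held 96 in 4300 kb, or 2.23 per 100 kb (1.81 to 2.73). The fibrillar confidence interval does not overlap those of the others, which overlap each other and hold the value of 2.59 for all protein-coding genes.

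SOX2-DBD intervals were also densest at fibrillar genes. Their density was 1.34 per 100 kb (0.842 to 2.03, 22 intervals) at fibrillar genes, 0.302 (0.0623 to 0.883, 3 intervals) at basement-membrane genes and 0.698 (0.471 to 0.996, 30 intervals) at the others. Here the fibrillar and other confidence intervals overlap. Shared entries made up 28.9% (19.96 to 39.96%) of the SOX2 intervals at fibrillar genes, 15.0% (5.24 to 36.0%) at basement-membrane genes and 30.2% (21.9 to 40.01%) at the others, and these do not separate.

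Members within a class differed more than the classes did. The median member had 1.79 SOX2 intervals per 100 kb among fibrillar genes (0 to 17.8), 1.14 among basement-membrane genes (0.677 to 4.49) and 1.34 among the others (0 to 9.86), so the ranges overlapped throughout. Without COL1A2 the pooled fibrillar density was 4.17 per 100 kb (3.23 to 5.31). The median GC content of the regions was 51.5% in the fibrillar class and 45.8% in each of the other classes, but the fibrillar genes with most intervals lay in GC-poor DNA. It was 36.4% at COL24A1, 34.96% at COL5A2, 33.5% at COL11A1, 38.1% at COL1A2 and 34.8% at COL3A1.

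**Figure D2:**
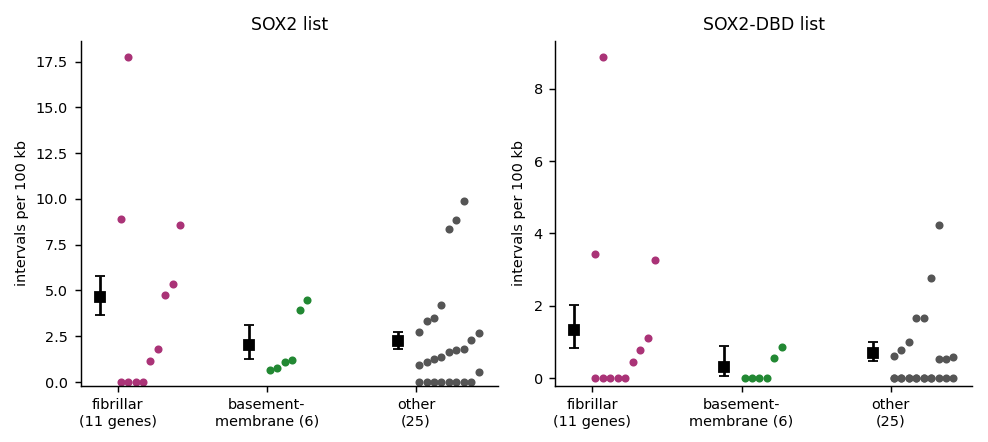
Intervals per 100 kb for the SOX2 list (left) and the SOX2-DBD list (right). Squares are pooled class densities with exact Poisson 95% intervals and points are single genes; the pooled fibrillar value of 4.64 for SOX2 stands above the others, while the fibrillar genes themselves run from 0 to 17.8.

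Among the fibrillar genes the chains of one protein could differ in their counts. Type I collagen, the main protein of skin and bone, is made of chains from COL1A1 and COL1A2. COL1A2 (chr7:94024207-94060539) had 10 SOX2 intervals, 5 of them shared, a density of 17.8 per 100 kb (8.51 to 32.6). COL1A1 (chr17:48261462-48278993) had none in either list, with an upper bound of 9.83 per 100 kb, which overlaps the confidence interval of COL1A2. Only 15 protein-coding genes were denser than COL1A2 for SOX2, 2 of them among the genes of 30 to 100 kb, and 29 had a higher SOX2-DBD density than its 8.88 per 100 kb.

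The intervals of COL1A2 were spread over the gene and its 3' side, and none lay within 1 kb of its canonical start. The nearest, chr7:94028000-94028373 in intron 3, was 3.98 kb into the gene and was a SOX2-only interval with a total signal of 1412. Shared intervals lay in intron 5 (chr7:94029968-94030304, total signal 1736), intron 29 (chr7:94043871-94044132, 3842) and intron 40 (chr7:94053232-94053567, 3179). The last pair of shared intervals, at chr7:94068643-94069133 and chr7:94069777-94070063, lay downstream of the gene with total signals of 2148 and 2234. SOX2-only intervals lay in intron 6 (2295), intron 31 (chr7:94046223-94047055, 4053, the highest at this gene), intron 39 (chr7:94051856-94052266, 1505) and intron 46 (chr7:94055845-94056231, 1504).

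Type V collagen, which nucleates fibrils and limits their width, showed a similar contrast between its chains. COL5A2 had 19 SOX2 intervals, 7 of them shared, at 8.90 per 100 kb (5.36 to 13.9). COL5A1, of similar length, had 4, of which 1 was shared, at 1.79 (0.489 to 4.59). COL5A3 had 0, with an upper bound of 5.20 per 100 kb. The confidence intervals of COL5A2 and COL5A1 do not overlap, whereas that of COL5A3 overlaps that of COL5A1.

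COL5A2 held the fibrillar interval with the highest total signal, chr2:189982576-189983958 in intron 1 (SOX2-only, 7163), and its intervals ran from 1196 to 7163 with a median of 3078. Of its 19 intervals, 6 lay in intron 1 of the canonical transcript. It neighbours COL3A1, whose chain forms the type III fibrils of extensible tissues such as skin and vessel walls, and both genes are transcribed toward each other. COL3A1 had 5 SOX2 intervals (8.57 per 100 kb, 2.78 to 19.99), 2 of them shared, and all lay outside its gene body. A single one was upstream, at -3.02 kb from the start, and 4 lay between the 3' ends of both genes. The highest of these 4 was a shared interval, chr2:189883456-189883642, with a total signal of 4486.

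COL1A2, COL3A1 and COL5A2 together held 34 SOX2 intervals in 327 kb, 10.4 per 100 kb (7.19 to 14.5), of which 14 were shared (41.2%, 26.4 to 57.8%). This trio was chosen for its high densities, so the values are a description.

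Of the remaining fibrillar genes, the long COL24A1 had the most SOX2 intervals of any member, 24 (5 shared), at 5.36 per 100 kb (3.43 to 7.98). Its highest, chr1:86522915-86524210 in intron 10, had a total signal of 6181 and was SOX2-only. COL11A1, a minor partner chain in cartilage fibrils, had 12 (2 shared) at 4.75 per 100 kb (2.46 to 8.30). COL27A1, a cartilage fibrillar collagen, had 2, both SOX2-only, at 1.13 per 100 kb (0.137 to 4.08), although 1 of them, chr9:116951116-116952386 in intron 5, reached a total signal of 6533. COL2A1, the main chain of cartilage fibrils, and COL11A2 had 0 intervals in both lists, with upper bounds of 7.15 and 7.40 per 100 kb.

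**Figure D3:**
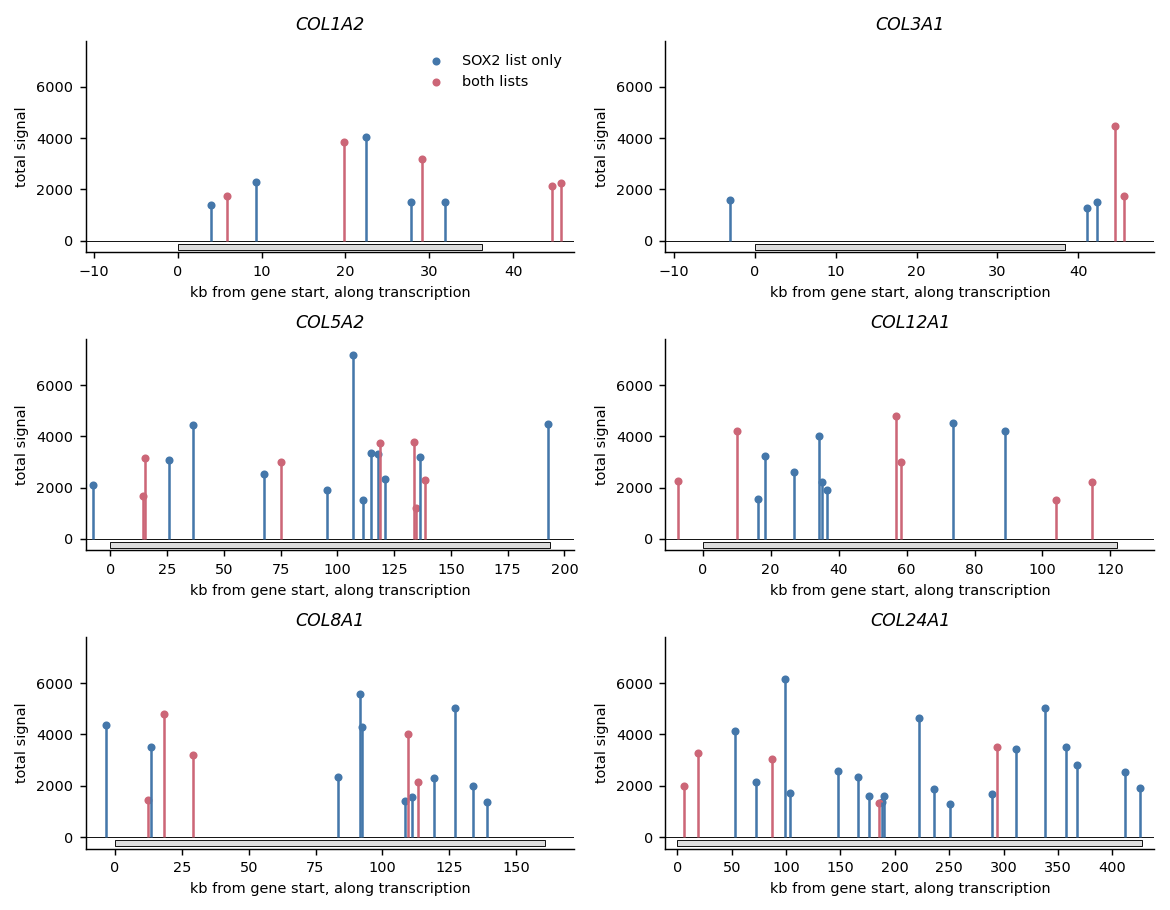
Total signal (the authors' deposited value) of each SOX2 interval against its distance from the gene start in kb along transcription, for COL1A2, COL3A1, COL5A2, COL12A1, COL8A1 and COL24A1; the grey bar is the gene body. Blue intervals are in the SOX2 list alone and red in both lists; COL3A1 has no interval in its gene body and 4 beyond its 3' end.

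All 6 basement-membrane genes had a SOX2 interval, beside 84.6% of all protein-coding genes of their length band (100 to 300 kb), and most of these intervals belonged to COL4A1 and COL4A2, which encode the chains of the widespread form of type IV collagen. Both genes start close together on chromosome 13 and are transcribed away from each other. COL4A1 had 8 SOX2 intervals (1 shared) at 4.49 per 100 kb (1.94 to 8.85), 4 of them in its intron 1, and COL4A2 had 9 (2 shared) at 3.96 (1.81 to 7.51). Because the regions overlap, 3 intervals counted for both genes, and the pair held 14 distinct intervals, 3.64 per 100 kb (1.99 to 6.11).

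The 3 intervals common to both lay on either side of the common promoter region and not on it, and each was SOX2-only. The nearest to a start, chr13:110954871-110955462 (total signal 2590), was 4.34 kb into COL4A1. Beyond it came chr13:110952571-110953504 (4718), 6.47 kb into COL4A1, and on the COL4A2 side chr13:110964737-110965223 (2037), 6.82 kb into that gene. The highest intervals of the class were all SOX2-only and intronic, chr13:111034230-111035337 in COL4A2 (7708), chr2:227988673-227989874 in COL4A4 (5921) and chr13:110899559-110900129 in COL4A1 (4982).

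COL4A3 and COL4A4, the paired chains of kidney and lung basement membrane, had 2 SOX2 intervals each, none shared, and 1.20 per 100 kb as a pair (0.328 to 3.08). This interval overlaps that of COL4A1 and COL4A2. COL15A1 and COL18A1, whose proteins link basement membranes to the surrounding matrix and release endostatin-type fragments, had 1 SOX2-only interval each (0.677 and 0.778 per 100 kb). That of COL18A1 lay outside the gene body, in the downstream flank, where it overlaps SLC19A1.

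Fibril-associated collagens (FACIT), which coat fibrils and link them to other matrix, held 48 SOX2 intervals over 10 genes, 2.59 per 100 kb (1.91 to 3.44), with 16 shared. COL12A1, which is found in dense connective tissue, was the densest of them at 9.86 per 100 kb (5.39 to 16.5), with 14 intervals of which 6 were shared. Its total signals ran from 1529 to 4780 with a median of 2791. The highest, chr6:75858916-75859467 in intron 21, was shared and lies under a printed window with 2 SOX core matches.

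COL14A1, which also regulates fibril growth, had 14 SOX2 intervals (2 shared) at 4.19 per 100 kb (2.29 to 7.04). They included the shared interval chr8:121307216-121307641 in intron 34, with a total signal of 6524. COL21A1 had 12 at 3.36 per 100 kb (1.73 to 5.86), and 6 of these were shared. COL19A1 had 6 (2 shared) at 1.64 per 100 kb. COL9A1 and COL9A2, chains of the collagen that coats cartilage fibrils, had 1 each, both SOX2-only, while their partner COL9A3 had 0. COL16A1, COL20A1 and COL22A1 also had 0 in both lists. For COL22A1, a long gene, the upper bound was 1.07 per 100 kb, below the lower bounds of COL12A1, COL14A1 and COL21A1.

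Short-chain collagens, which form hexagonal networks, had the highest pooled density of the remaining families, 7.23 SOX2 intervals per 100 kb (4.47 to 11.05), from 3 genes. COL8A1, expressed in vessel walls and around the cornea, had 16 (5 shared) at 8.85 per 100 kb (5.06 to 14.4), of which 7 lay in intron 1. Its highest, chr3:99448333-99449145 in intron 1, was SOX2-only with a total signal of 5573. COL10A1, the collagen of hypertrophic cartilage, had 5 (1 shared) at 8.36 per 100 kb (2.71 to 19.5). All 5 also lie inside NT5DC1, a gene that overlaps it, so they cannot be assigned to COL10A1 alone. COL8A2, the partner chain of COL8A1, had 0, with an upper bound of 7.38 per 100 kb.

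Each of the 5 chains of the beaded-filament collagen VI had at least 1 SOX2 interval (background 26.4% to 84.6% over the length bands they fall in), but together they held 9, of which 1 was shared (1.64 per 100 kb, 0.752 to 3.12). COL6A3 had 3, COL6A5 and COL6A6 had 2 each, and COL6A1 and COL6A2 had 1 each. That of COL6A1 lay outside the gene body, in the downstream flank. The single shared interval was at COL6A5.

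Transmembrane collagens, which anchor cells to matrix, were the sparsest family with any interval, 11 SOX2 intervals over 4 genes at 0.962 per 100 kb (0.480 to 1.72). COL25A1, which acts in motor nerve development, had 9 of them, of which 4 were shared. They included the shared interval with the highest total signal at any member, chr4:109806159-109806646 in intron 18 (6888). COL13A1, a collagen of the neuromuscular junction, had 1 interval, chr10:71623928-71624385 in intron 2, which was shared (total signal 3252). COL17A1, a hemidesmosome protein of skin, had 1 SOX2-only interval. COL23A1 had 0 over 353 kb of gene body, with an upper bound of 0.989 per 100 kb. COL7A1, the anchoring fibril of the skin, had 0, with an upper bound of 7.20, and COL26A1 had 0, with an upper bound of 1.71.

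COL28A1 was the only member with an interval found in the SOX2-DBD list alone, against 2.49% of protein-coding genes with at least 1. That interval, chr7:7530257-7532666 in intron 11, was 2410 bp wide with a total signal of 8006 and a maximum of 10. The gene also had 7 SOX2 intervals, 1 of them shared, at 3.51 per 100 kb (1.41 to 7.22). Its nearest SOX2 interval on one side, chr7:7527730-7528616, was SOX2-only with a total signal of 4910.

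Most collagen intervals lay in introns. Of the 192 SOX2 intervals, 154 were intronic (80.2%, 74.0 to 85.2%), beside 79.4% of the intervals at all protein-coding genes. Exons held 4 (2.08%, 0.813 to 5.23%), beside 5.67%. The rules behind these shares differ. Collagen intervals were placed by the member genes alone. The genome-wide shares used every protein-coding gene, taking a start first, then an exon, an intron and a flank. The intron and exon shares are therefore not like comparisons. The 10 kb downstream held 14 (7.29%, 4.39 to 11.9%), beside 3.98%, and the 10 kb upstream held 7 (3.65%), beside 4.50%. A flank interval that lies inside another gene stays in the flank for collagens but not in the genome-wide shares. Those downstream of COL6A6, COL9A2, COL10A1 and COL18A1 overlap another protein-coding gene, so the flank shares are not alike either. The 55 SOX2-DBD intervals were placed alike, with 45 in introns (81.8%, 69.7 to 89.8%, beside 77.9%) and 0 in exons.

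No member had a SOX2 interval within 1 kb of its canonical transcription start, a position held at 1.55% of protein-coding genes, so that a count of 0 among 42 is near the background. Counting every annotated transcript start of the members, 13 intervals (6.77%, 3.999 to 11.2%) lay within 1 kb of one. Over all protein-coding genes, where a start of any such gene counts, the share was 6.46%. COL1A2 supplied 5 of the 13, at starts of short transcripts inside the gene. COL12A1 supplied 2, chr6:75811753-75812034 (shared, total signal 1529) and chr6:75897265-75898071 (SOX2-only, 3219).

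The rest were single intervals. They lay at COL4A2 (chr13:111077451-111077887), COL6A3 (chr2:238296743-238297109), COL14A1 (chr8:121119827-121120354), COL21A1 (chr6:56257806-56258397), COL24A1 (chr1:86210956-86211667) and COL25A1 (chr4:109753111-109753200). The COL25A1 interval was shared (total signal 1657) and the others were SOX2-only, with total signals of 1740, 2306, 1700, 1852 and 2519 in the order of those genes. The COL21A1 interval was 0.79 kb from the gene's first annotated start.

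The SOX core motif was present in the central 200 bp of 101 of the 192 collagen SOX2 intervals (52.6%, 45.6 to 59.5%), beside 47.3% of all SOX2 intervals. In windows of the same size 10 kb downstream it was present in 28.1% and 27.7%, respectively. The downstream windows had a higher mean GC content, 39.3% and 39.5% against 33.7% and 33.9% at the centre, and were not matched for it. By class it was in 38 of 76 fibrillar windows (39.03 to 60.97%), 14 of 20 basement-membrane windows (70.0%, 48.1 to 85.5%) and 49 of 96 other windows (51.0%), with overlapping confidence intervals. SOX2-only and shared collagen intervals held it at similar rates, in 74 of 138 (53.6%, 45.3 to 61.7%) and 27 of 54 (37.1 to 62.9%).

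The AP-1 motif, which binds FOS and JUN dimers and marks many fibroblast enhancers, differed in share between shared and SOX2-only collagen intervals in windows at the centre. It was present in 10 of 54 shared collagen windows (18.5%, 10.4 to 30.8%) and in 5 of 138 SOX2-only windows (3.62%, 1.56 to 8.201%), and these confidence intervals do not overlap. Over all intervals of the lists the shares were 16.9% and 6.58%. In windows 10 kb downstream it was present in 3.70% of shared and 5.80% of SOX2-only collagen intervals, beside 2.90% and 2.997% over all intervals, so at SOX2-only collagen intervals the central share was not above the downstream one. With the window on the region of maximum signal the collagen shares were 16.7% (9.02 to 28.7%) and 7.25% (3.98 to 12.8%), and these confidence intervals overlap. Fibrillar genes had the motif in 4 of 22 shared and 0 of 54 SOX2-only windows at the centre, but in 2 of 22 and 4 of 54 on the region of maximum signal.

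**Figure D4:**
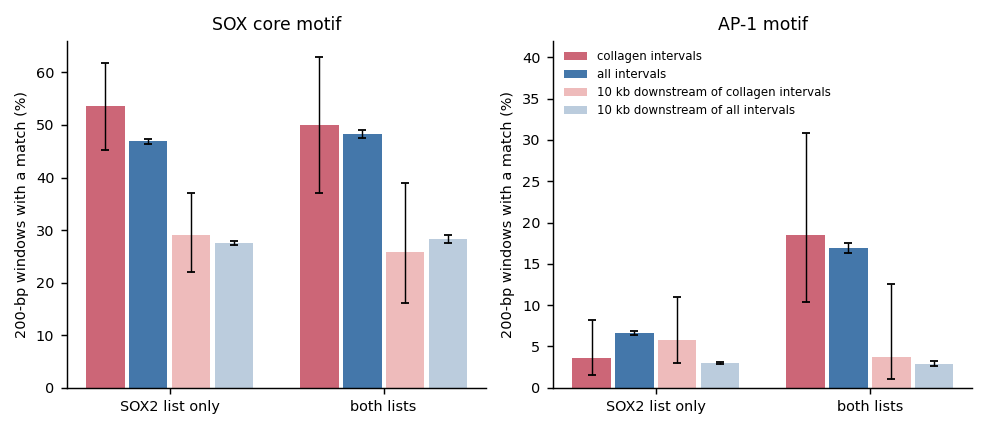
Share of 200-bp windows holding the SOX core motif (left) or the AP-1 motif (right), for collagen intervals and all intervals and for windows 10 kb downstream of each, with Wilson 95% intervals. The AP-1 share of collagen intervals is 18.5% in shared and 3.62% in SOX2-only intervals, whereas the SOX core is found in 27 of 54 and 74 of 138.

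Shared collagen intervals were listed as narrower than SOX2-only ones, with medians of 347 and 564 bp, beside 373 and 559 bp over the whole lists. Some shared entries were very short, such as the 8-bp entry at COL8A1, whose total signal exceeds any sum over its bases. How the coordinates of shared entries were set is not stated. Whether their widths and window centres match the peaks as called was not tested. Within the seventh column, 5 shared collagen intervals had a value of 2 or more (9.26%, beside 7.94% of all shared intervals). They lay upstream of COL12A1 (chr6:75922933-75923525, value 3, at -7.246 kb from the start) and in introns of COL12A1, COL13A1, COL21A1 (chr6:56087163-56087805) and COL25A1.

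Density among collagen genes moved with base composition and with the surrounding region, both of which were examined after the densities had been seen. The 12 members without an interval had a median GC content of 54.5% (46.6 to 58.8%) over the gene and its flanks, and the 30 with one had 39.2% (33.5 to 60.7%). All 10 members under 38% GC had a SOX2 interval (background 68.8%), as did all 8 at 38 to 42% (74.8%) and all 3 at 42 to 46% (59.2%). Of the 21 members at 46% or more it was 9 (21.4%).

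Within the band under 38% GC the median density was 5.06 per 100 kb for members and 3.38 for all genes, and within the band of 38 to 42% it was 2.38 and 3.16. At 42 to 46% it was 2.72 for the 3 members and 1.52 for all genes, and at 46% or more it was 0 for both. These are descriptions over genes that share 1 peak list. The part of GC content in the difference between classes and members was not tested.

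The 500 kb on either side of a gene, outside its own region, held a median of 2.45 SOX2 intervals per 100 kb for members and 1.6 for all protein-coding genes. For COL1A2 the surrounding density was 4.4 per 100 kb, below its own 17.8. COL3A1 and COL5A2, with 8.57 and 8.90 of their own, had surroundings of 8.2 and 6.9, which hold each other's intervals. For COL1A1 it was 1 and for COL5A1 0.1. What the surroundings contribute to a member's density was not tested.

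**Figure D5:**
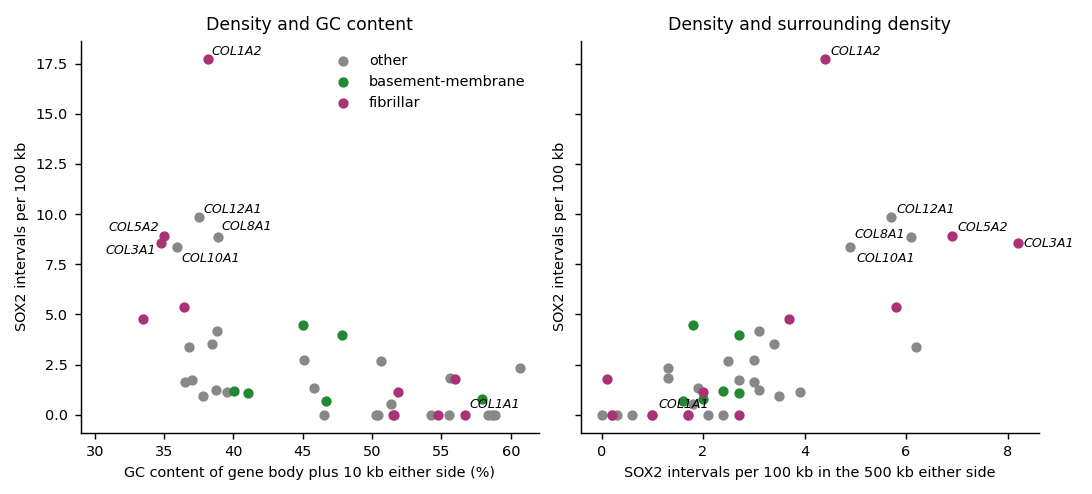
SOX2 intervals per 100 kb of each collagen gene against the GC content of its region in percent (left) and against the SOX2 density of the 500 kb either side (right), coloured by class. The 6 densest genes have regions of low GC content, and COL1A2 stands at 17.8 above surroundings of 4.4.

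Genes that modify, process or bind collagen were examined with the same rule. Of 20 genes for prolyl and lysyl modification and chaperoning in the endoplasmic reticulum, 9 had a SOX2 and 6 a SOX2-DBD interval, with a median density of 0, near the background of 47.8% and 24.0% of all protein-coding genes. Among them MIA3, which helps export procollagen, had 6 SOX2 intervals (8.58 per 100 kb), and PLOD2, a lysyl hydroxylase, had 7 (4.71). The collagen chaperone SERPINH1 and the prolyl hydroxylase subunit P4HB had 0.

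Of 14 genes for propeptide cleavage, cross-linking and turnover, 9 had a SOX2 and 7 a SOX2-DBD interval (background 47.8% and 24.0%), with a median of 0.792 per 100 kb. The procollagen N-proteinase gene ADAMTS3 had 11 (6 shared), and the cross-linking enzyme LOX had 1. BMP1, the C-proteinase, had 0.

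Of 9 collagen receptors, 4 had a SOX2 and 4 a SOX2-DBD interval (background 47.8% and 24.0%), with a median of 0. The integrin genes ITGA1 and ITGA2 had 11 each, of which 4 and 6 were shared, and the discoidin receptor DDR2 had 10 (4 shared). ITGA11, the fibroblast collagen integrin subunit, had 0.

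The limit of 10 kb decides some members' counts. With the gene body alone, 26 members had a SOX2 interval, against 30 with the flanks. Just inside it lay a shared interval 9.24 kb downstream of COL1A2 (total signal 2234), a shared interval 9.26 kb downstream of COL28A1 (5047) and the single interval of COL9A2, 9.29 kb downstream (1297). Just outside lay shared intervals 10.3 kb downstream of COL6A6 (2258) and 10.8 kb upstream of COL12A1 (3771), and a SOX2-only interval 11.2 kb downstream of COL11A1 (1195).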

How the data were processed

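V5 CUT&RUN of SOX2 and SOX2dbd in BJ fibroblasts was analysed from 1 deposited peak list per group and a deposited SOX2 list named as down-sampled, which holds positions only. The submitters' processing notes name Bowtie2 2.3.4.1, SAMtools, bedtools 2.27.1, SEACR 1.3, deepTools 3.5.0 and build hg19, with no role or order. The deposited lists give a total and a maximum signal per interval, and a seventh column of whole-number scores, deposited only for shared entries, whose meaning is not given in the sources used here. Whether replicates were pooled is not stated, and replicate 2 was not analysed here.

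Exact duplicates were counted once. Gene models were those of GENCODE release 44 mapped to GRCh37 (the hg19 sequence). A class density is its distinct intervals over the merged length of its regions. The canonical start is that of the annotation's canonical transcript. Motifs were sought on the GRCh37 sequence. Counting code was checked on simulated intervals against brute force, and 0 of 400 genes differed. The members and lists were chosen with earlier results of these data known. All members are accounted for; those with most intervals, highest density or 0 intervals are named, as are, per class, the 3 intervals of highest total signal. Alternatives covered the region, overlap rule, duplicates, merging, signal, list, class membership, motif window and start definition. Python 3.11.15, numpy 2.4.6, pandas 2.3.3, scipy 1.17.1, pysam 0.24.0 and matplotlib 3.10.9 were used.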

Additional observations from a re-analysis of the deposited data

Results flagged for a closer look

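Among the shared collagen intervals, the unexplained seventh column carried a value of at least 1 in 22 of 54 (40.7%, Wilson 95% interval 28.7 to 54.0%), beside 34.5% of all 14300 shared intervals. Above, the column served to choose some printed windows and to give the share of intervals with a value of 2 or more. It was listed because it is a signal in a column outside the main measurement. What the column counts is not given in the sources used here.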

How the results depend on the processing

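No paired analysis was possible because only 1 list per group was analysed, and for the same reason no replicate could be left out; the depth behind each list is unknown. Of 103 alternative values for 14 results, 81 stayed within the counting interval of a density or share, or within 1.5 times a count, and 22 did not. With only the upper 50% of each list by total signal, 99 SOX2 and 28 SOX2-DBD intervals were left at the members, and SOX2 densities per 100 kb fell to 2.32 (fibrillar), 1.01 (basement-membrane) and 1.19 (other), with SOX2-DBD densities of 0.733, 0 and 0.372. With the down-sampled list the SOX2 densities were 3.11 (fibrillar), 1.51 (basement-membrane) and 1.46 (other). The member medians were 1.79, 1.14 and 1.34 for SOX2 and 0.448, 0 and 0 for SOX2-DBD. The 9 settings tallied for all 3 classes include the main one and recount overlapping sets of intervals, so they are not independent. Fibrillar genes had the highest SOX2 density in 9 of 9. The other collagens exceeded the basement-membrane ones in 8 of 9, the exception being the down-sampled list. With the type IV chains of the set alone as basement-membrane, their density was 2.51 and that of the others 2.14, so this order turned there too. Leaving out 1 member at a time, an alternative chosen after seeing the data, gave fibrillar SOX2 densities of 4.001 (without COL5A2) to 5.09. Counting 50 kb either side gave 87 SOX2-DBD intervals. In 100-bp windows the SOX core share was 27.1% and the AP-1 share 4.69%. The share near a start was 20.3% within 5 kb, 1.56% for starts of protein-coding transcripts and 0% for canonical starts, the last chosen after seeing the data. Most members had too few intervals to separate their densities, and the lists cannot show sites under the callers' threshold.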

Other observations

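The down-sampled SOX2 list held 129 intervals at the collagen genes. It covered 126 of the 192 intervals of the full SOX2 list (65.6%, Wilson 95% interval 58.7 to 72.0%), beside 64.3% of all SOX2 intervals. The 3 that overlapped no interval of the full list lay at COL8A1 (chr3:99398058-99398512), COL12A1 (chr6:75904760-75905268) and COL11A1 (chr1:103523007-103523714). COL5A2, with 19 intervals in the full list, had 9 in the down-sampled one, and COL1A2, with 10, had 8.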
